A study of Homo sapiens with 12 samples.

Results

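The genes described here are 35 genes of glycolysis and of the response to low oxygen, read in U937, an established human leukaemia cell line of the monocytic lineage. They were taken from a list that was chosen with earlier results of these data known. Each gene was read by 1 probe set, a group of short probes combined into 1 level. It is the probe set annotated to that symbol alone that has the highest mean over the 12 arrays. Of the 35 genes, 34 had such a probe set among 19775 genes named this way on the arrays, and SLC16A3 was not analysed here. A gene was tested where its log2 signal reached 5 on at least 3 arrays, which left 32 of the 34 genes among 14080 genes tested. The enolase ENO2, at 4.08 to 4.80, and the oxygen-sensing prolyl hydroxylase EGLN3, at 4.53 to 5.12, did not reach 5 on 3 arrays and have no test.

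All cells were U937 cells transduced either with a vector that expresses EVI1 or with the empty vector. EVI1, also called MECOM, is a zinc finger transcription factor and an oncogene of myeloid leukaemia. Growing cultures received 1 µM all-trans retinoic acid (ATRA), a ligand of nuclear retinoic acid receptors that drives myeloid cells to mature, or the same amount of its solvent DMSO, for 24 h. The 4 groups were EVI1 cells with ATRA, EVI1 cells with DMSO, vector cells with ATRA and vector cells with DMSO, each with 3 arrays that the series calls biological replicates. The labels do not say whether either population was a clone, nor which promoter drives EVI1.

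Glycolysis splits glucose into pyruvate, and lactate dehydrogenase turns pyruvate into lactate. Glucose enters through transporters, is trapped by hexokinases and is committed at the phosphofructokinase step, which the PFKFB enzymes tune by making or removing fructose 2,6-bisphosphate. Under low oxygen, the factor HIF-1 raises many of these genes together with genes for vessel growth, mitochondrial turnover and oxygen sensing, and it binds DNA at sites that hold the core ACGTG or GCGTG.

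Array medians lay between 5.29 and 5.35 on the log2 scale, and arrays of 1 group correlated with r of 0.987 to 0.995 over all probe sets. The 5 MECOM probe sets read 2.61 to 3.60 on all 12 arrays, which leaves the label EVI1 unchecked here. Which part of the gene the probes read and which part the vector carries was not compared. Of the 12 listed markers of U937 and myelomonocytic cells, 9 passed the signal limit, with LYZ at 12.35 to 13.65, while FCGR1A stayed at 3.21 to 3.80 and CD33 and CD68 were not analysed here. The mean level of the markers analysed, FCGR1A included, was 8.20 to 8.26 in EVI1 ATRA and 8.08 to 8.12 in EVI1 DMSO arrays. It was 8.07 to 8.26 in vector ATRA and 8.03 to 8.22 in vector DMSO arrays. Among markers of other lineages, EPCAM (2.78 to 3.37), MS4A1 (3.87 to 4.77), CD2 (4.01 to 4.81) and COL3A1 (3.87 to 4.38) stayed under the limit. In all, 3 of 5 listed erythroid, 3 of 4 T cell, 2 of 4 B cell, 2 of 4 epithelial and 2 of 4 fibroblast markers passed it, among them EPOR (7.53 to 8.10), COL1A1 (7.01 to 7.98) and PAX5 (5.74 to 7.99). The DMSO arrays of replicate 3 stood nearer the ATRA arrays than the other DMSO arrays for several genes below, so named calls that were gained or lost without that pair are given beside the genes.

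Over the 32 tested genes, calls between ATRA and DMSO went in both directions. The list was chosen with earlier results of these data known, so the shares beside those of all genes are no test of it. A gene is called here where limma's test, adjusted by Benjamini-Hochberg over all 14080 genes, gives p under 0.05. In EVI1 cells 10 of the 32 genes (31.2%) were called, 7 higher and 3 lower with ATRA, against 15.1% of all tested genes (7.45% higher, 7.66% lower). In vector cells 4 of 32 (12.5%) were called, 2 higher and 2 lower, against 3.52% of all tested genes (2% higher, 1.52% lower). The median difference over the 32 genes was 0.02 in EVI1 cells and -0.02 in vector cells, beside -0.023 in EVI1 cells and -0.003 in vector cells over all tested genes. Averaged over both populations, 13 of 32 (40.6%) were called, 8 higher and 5 lower, against 22.4% of all tested genes (11.1% higher, 11.3% lower). The 8 higher genes were HK3, DDIT4, NDRG1, SLC2A1, PFKFB4, PFKFB3, P4HA1 and PFKM, and the 5 lower genes were HK2, VEGFA, PFKP, PDK1 and LDHA. RNA came from whole cultures, so fewer cells of a type and less RNA per cell cannot be told apart. With the replicate number as a block, 15 genes were called in EVI1 cells and 11 in vector cells, beside 35.7% of all tested genes in EVI1 cells and 20% in vector cells. Averaged over both populations the block gave 16 called genes, against 40.6% of all tested genes, and the 3 added were SLC2A3 (0.30, blocked adjusted p = 0.0418), PGAM1 (0.16, 0.0125) and BNIP3 (-0.32, 0.0347). Leaving out 1 array gave 6 called genes in EVI1 cells without EVI1 ATRA 2 or 3, EVI1 DMSO 1 or 2, vector ATRA 2 or 3, or vector DMSO 2. In vector cells it gave 1 called gene without vector ATRA 2 or vector DMSO 1, and 2 without vector ATRA 3 or vector DMSO 2. Shares of all tested genes in fits that leave out arrays are not given here or below. Such counts therefore do not single out the listed genes.

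**Figure D1:**
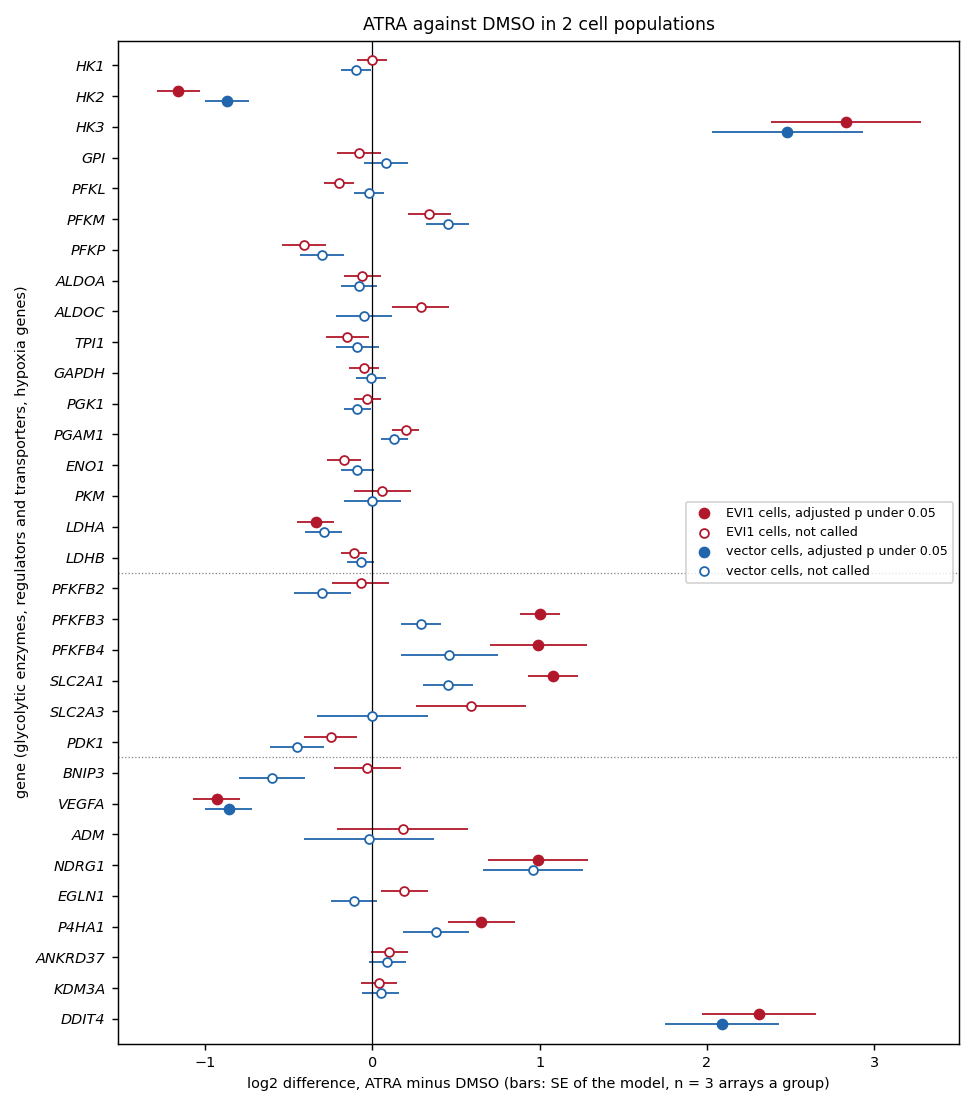
Difference between ATRA and DMSO (log2 signal) for the 32 tested genes in EVI1 cells (red, upper point of each pair) and vector cells (blue, lower point), with bars of 1 SE from the limma model and n = 3 arrays a group. Filled points passed an adjusted p under 0.05; HK3 and DDIT4 lie furthest to the right and HK2 furthest to the left in both populations, while most glycolytic enzymes lie near 0.

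The 3 hexokinases, which phosphorylate glucose as the entry step, did not move together. HK3, the hexokinase best known from myeloid cells, read 9.05, 9.27 and 10.08 on the EVI1 ATRA arrays, against 5.81, 6.42 and 7.69 on the EVI1 DMSO arrays. In vector cells HK3 read 9.15, 9.32 and 9.37 with ATRA, against 6.09, 6.77 and 7.54 with DMSO. ATRA and DMSO arrays did not overlap in either population, and replicate 3 was the highest DMSO array in both. HK3 rose by 2.83 ± 0.45 (SE, n = 3 each) on the log2 scale in EVI1 cells (7.09-fold, limma adjusted p = 0.00264) and by 2.48 ± 0.45 in vector cells (5.58-fold, adjusted p = 0.0153). Without both DMSO arrays of replicate 3 the rise was 3.35 in EVI1 cells and 2.85 in vector cells, and both were called.

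HK2, the inducible hexokinase that sits at the mitochondrial surface, moved the other way. It read 9.73, 9.45 and 9.59 on the EVI1 ATRA arrays, against 10.89, 10.78 and 10.57 on the EVI1 DMSO arrays. In vector cells HK2 read 10.07, 9.75 and 10.02 with ATRA, against 10.94, 10.71 and 10.80 with DMSO. Every ATRA array lay under every DMSO array of its population. HK2 fell by 1.16 ± 0.13 in EVI1 cells (2.23-fold lower, limma adjusted p = 0.000644) and by 0.87 ± 0.13 in vector cells (1.83-fold lower, adjusted p = 0.00606). The other 2 probe sets of HK2 differed by -0.65 and -0.59 in EVI1 cells, both called, and by -0.05 and -0.22 in vector cells, neither called. With the mean of the 3 probe sets in place of the brightest, the vector difference was -0.38 (adjusted p = 0.122). HK1, the constitutive hexokinase, stayed between 10.31 and 10.65 on all 12 arrays, and the 95% interval of its ATRA difference was -0.20 to 0.20 in EVI1 cells and -0.30 to 0.10 in vector cells.

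In vector cells the HK3 call was lost without vector DMSO replicate 1 or 2 or vector ATRA replicate 2 or 3, with differences of 2.13 to 2.85 and adjusted p of up to 0.08 over the 12 fits that each leave out 1 array. The HK2 calls in both populations, and the HK3 call in EVI1 cells, were made in all 12 of those fits.

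The promoters of HK3 and HK2 are shown because these genes moved in opposite directions with ATRA. Each is drawn as 300 bases on the gene's strand (250 before to 50 after a RefSeq transcript start, build GRCh38.p14). Capitals mark ACGTG or GCGTG on either strand, so also CACGT and CACGC on the strand shown. HK3 lies at chr5:176899297-176899596 on the minus strand, and HK2 has a pair of starts on the plus strand, at chr2:74834920-74835219 (start A) and chr2:74833877-74834176 (start B).
HK3: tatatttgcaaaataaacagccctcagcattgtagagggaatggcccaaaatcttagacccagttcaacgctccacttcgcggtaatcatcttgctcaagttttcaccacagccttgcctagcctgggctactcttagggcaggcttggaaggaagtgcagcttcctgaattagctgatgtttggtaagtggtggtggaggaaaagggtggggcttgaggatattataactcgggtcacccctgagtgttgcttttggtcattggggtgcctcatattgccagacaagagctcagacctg
HK2 start A: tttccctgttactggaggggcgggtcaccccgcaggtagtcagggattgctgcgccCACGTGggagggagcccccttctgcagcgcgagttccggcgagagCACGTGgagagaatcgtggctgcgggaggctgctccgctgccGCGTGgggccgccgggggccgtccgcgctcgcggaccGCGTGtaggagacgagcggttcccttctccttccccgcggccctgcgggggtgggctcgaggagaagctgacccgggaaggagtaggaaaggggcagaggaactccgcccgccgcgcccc
HK2 start B: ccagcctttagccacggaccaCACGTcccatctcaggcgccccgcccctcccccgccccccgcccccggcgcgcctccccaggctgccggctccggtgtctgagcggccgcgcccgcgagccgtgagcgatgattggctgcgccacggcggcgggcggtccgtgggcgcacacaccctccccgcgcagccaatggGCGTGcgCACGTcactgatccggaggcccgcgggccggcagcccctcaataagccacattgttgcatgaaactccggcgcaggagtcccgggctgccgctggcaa
The HK3 window held none of these cores, HK2 start A held 4 separate marked sites and HK2 start B held 3. HK1 has several starts, whose windows are not shown. Some of them held 1 GCGTG and the others held neither core, so no link between cores and direction can be read from these genes. At HK2 start A, 2 of the sites are CACGTG, the palindromic E-box bound by MYC and USF proteins, which holds ACGTG on both strands. Of the retinoic acid response element half-sites, only the forms AGGTCA and AGTTCA were counted, over both strands, and the HK3 window held 1 copy of AGTTCA. Other forms of the half-site were not counted, so the windows are not compared by it. Matches are a description of letters and say nothing about binding in these cells.

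The next committed step is phosphofructokinase, which has a liver (PFKL), a muscle (PFKM) and a platelet (PFKP) form. Averaged over both populations, PFKM rose by 0.39 ± 0.09 with ATRA (limma adjusted p = 0.00841) and PFKP fell by 0.36 ± 0.09 (adjusted p = 0.016). PFKM read 6.38, 5.99 and 6.04 in EVI1 ATRA, against 5.94, 5.72 and 5.74 in EVI1 DMSO cells. In vector cells PFKM read 6.27, 6.47 and 6.42 with ATRA, against 6.04, 5.80 and 5.98 with DMSO, with no overlap in either population. PFKP read 10.54, 10.28 and 10.37 in EVI1 ATRA, against 10.96, 10.69 and 10.77 in EVI1 DMSO cells. In vector cells PFKP read 10.74, 10.34 and 10.44 with ATRA, against 10.95, 10.69 and 10.79 with DMSO, where the groups overlapped although each replicate was lower with ATRA. Within a single population neither gene was called without the block; with it, PFKM was called higher (adjusted p = 0.0299 in EVI1 cells, 0.0156 in vector cells) and PFKP lower (0.000802 in EVI1 cells, 0.00942 in vector cells). PFKL differed by -0.20 ± 0.09 in EVI1 cells (limma adjusted p = 0.186, 0.0395 with the block) and by -0.02 ± 0.09 in vector cells.

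Among the middle and lower enzymes of the pathway the range over arrays differed from gene to gene. GAPDH, which oxidises glyceraldehyde 3-phosphate, spanned 0.16 over the 12 arrays, the narrowest range of the 34 genes, from 14.04 to 14.20. The 95% interval of its ATRA difference was -0.24 to 0.14 in EVI1 cells and -0.20 to 0.18 in vector cells. PGK1, the first ATP-yielding kinase of the pathway, spanned 0.17, from 13.52 to 13.69. Aldolase A (ALDOA) spanned 0.32, the enolase ENO1 0.44, triosephosphate isomerase (TPI1) 0.48, the isomerase GPI 0.50 and pyruvate kinase (PKM) 0.58. Aldolase C (ALDOC) spanned 0.83, from 7.84 to 8.67, and its ATRA difference was 0.29 ± 0.17 in EVI1 cells and -0.05 ± 0.17 in vector cells. The phosphoglycerate mutase PGAM1 differed by 0.20 ± 0.08 with ATRA in EVI1 cells (limma adjusted p = 0.14, 0.0325 with the block) and by 0.13 ± 0.08 in vector cells.

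LDHA, the lactate dehydrogenase subunit that favours lactate formation, was lower with ATRA. It read 13.39, 13.11 and 13.20 in EVI1 ATRA cells, against 13.66, 13.54 and 13.53 in EVI1 DMSO cells. In vector cells LDHA read 13.48, 13.25 and 13.29 with ATRA, against 13.70, 13.62 and 13.56 with DMSO. The ATRA arrays lay under the DMSO arrays in both populations. LDHA fell by 0.34 ± 0.11 in EVI1 cells (limma adjusted p = 0.0481) and differed by -0.29 ± 0.11 in vector cells (adjusted p = 0.177, 0.0145 with the block). The EVI1 call was kept without vector ATRA replicate 1 and without EVI1 ATRA replicate 1 and lost without each of the other 10 arrays, with differences of -0.42 to -0.28 and adjusted p of up to 0.171. It was also lost without both DMSO arrays of replicate 3 (adjusted p = 0.0901). LDHB spanned 0.24 over the 12 arrays, and its ATRA difference was -0.11 ± 0.08 in EVI1 cells and -0.07 ± 0.08 in vector cells. The difference between LDHA and LDHB was not tested.

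**Figure D2:**
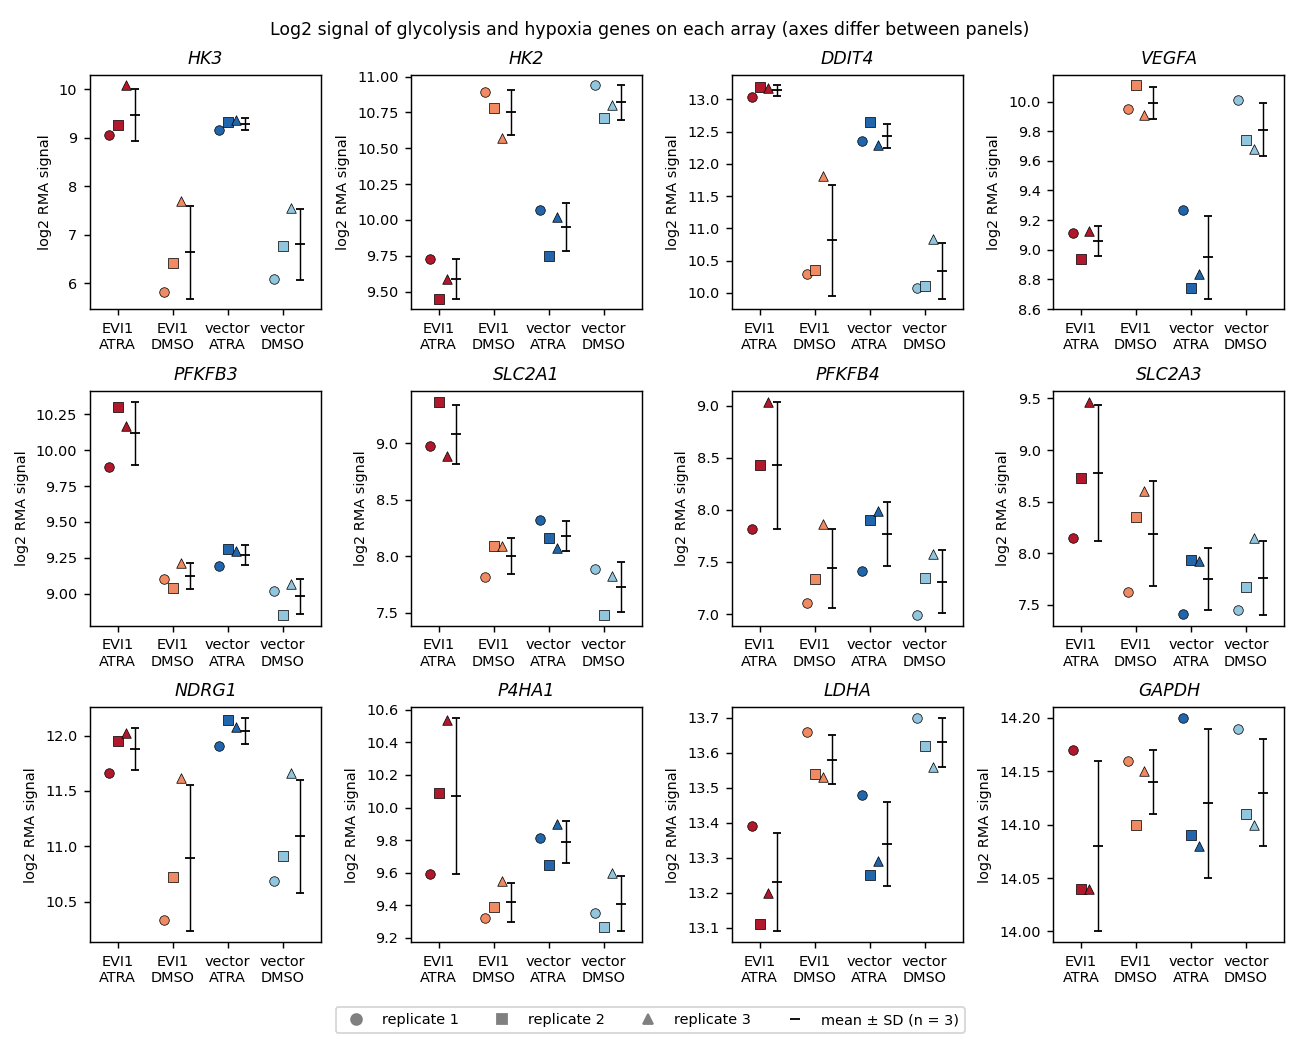
Log2 signal on each array for 12 of the genes, in EVI1 ATRA, EVI1 DMSO, vector ATRA and vector DMSO cells from left to right. Each point is 1 array, the shape gives the replicate number, and the bar beside the points is the mean ± SD of 3 arrays; axes differ between panels. HK3 on DMSO arrays runs from 5.81 to 7.69 with replicate 3 highest, PFKFB3 and SLC2A1 are highest in EVI1 ATRA cells, and GAPDH spans 0.16 in all.

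Among regulators and transporters, PFKFB3, SLC2A1 and PFKFB4 rose with ATRA in EVI1 cells, 3 of the 6 tested, and 0 of 6 were called in vector cells, where 3 of 6 had an unadjusted p under 0.05. Of all tested genes, 15.1% were called in EVI1 cells and 3.52% in vector cells, and 17.4% had an unadjusted p under 0.05 in vector cells. PFKFB3, the PFKFB form with the strongest kinase activity, which makes the activator of phosphofructokinase, read 9.88, 10.30 and 10.17 in EVI1 ATRA cells, against 9.10, 9.04 and 9.21 in EVI1 DMSO cells. In vector cells PFKFB3 read 9.19, 9.31 and 9.30 with ATRA, against 9.02, 8.85 and 9.07 with DMSO. The 3 EVI1 ATRA arrays lay above all the other 9 arrays. PFKFB3 rose by 1.00 ± 0.12 in EVI1 cells (2.00-fold, limma adjusted p = 0.000933), and its difference in vector cells was 0.29 ± 0.12 (95% interval 0.03 to 0.55).

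SLC2A1, the basal glucose transporter GLUT1, showed the same order of groups. It read 8.98, 9.37 and 8.89 in EVI1 ATRA cells, against 7.82, 8.09 and 8.09 in EVI1 DMSO cells. In vector cells SLC2A1 read 8.32, 8.16 and 8.07 with ATRA, against 7.89, 7.48 and 7.83 with DMSO. Again the EVI1 ATRA arrays lay above all the others. SLC2A1 rose by 1.08 ± 0.15 in EVI1 cells (2.11-fold, limma adjusted p = 0.00161), and its difference in vector cells was 0.45 ± 0.15 (95% interval 0.12 to 0.78). Its other tested probe set differed by 0.58 in EVI1 cells and was called as well. The calls of PFKFB3 and SLC2A1 in EVI1 cells were made in all 12 fits that leave out 1 array.

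PFKFB4, another form of the same enzyme family, read 7.82, 8.43 and 9.04 in EVI1 ATRA cells, against 7.11, 7.34 and 7.86 in EVI1 DMSO cells. In vector cells PFKFB4 read 7.41, 7.90 and 7.99 with ATRA, against 6.99, 7.35 and 7.58 with DMSO. The groups overlapped in both populations, and all 3 replicates of each were higher with ATRA. PFKFB4 rose by 0.99 ± 0.29 in EVI1 cells (limma adjusted p = 0.04), and its vector difference was 0.46 ± 0.29 (adjusted p = 0.473, 0.0255 with the block). The EVI1 call was lost without any of 7 arrays (EVI1 ATRA 2 or 3, EVI1 DMSO 1 or 2, vector ATRA 2 or 3, vector DMSO 2), with differences of at least 0.69 and adjusted p of up to 0.169. With the mean of its probe sets the difference was 0.54 (adjusted p = 0.0534), and the dimmer probe set alone differed by 0.10. Averaged over both populations PFKFB4 rose by 0.73 ± 0.21 (limma adjusted p = 0.0251), and the dimmer probe set differed by 0.01. That averaged call was lost in 7 of the 12 fits that leave out 1 array, with adjusted p of up to 0.0663.

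SLC2A3, the high-affinity glucose transporter GLUT3, read 8.15, 8.73 and 9.47 in EVI1 ATRA cells, against 7.62, 8.35 and 8.60 in EVI1 DMSO cells. In vector cells SLC2A3 read 7.41, 7.93 and 7.92 with ATRA, against 7.45, 7.67 and 8.15 with DMSO. Values spread widely by replicate number and the groups overlapped. The ATRA difference was 0.59 ± 0.33 in EVI1 cells (limma adjusted p = 0.268, 0.00928 with the block) and 0.00 ± 0.33 in vector cells. PDK1, the kinase that switches off pyruvate dehydrogenase, fell by 0.35 ± 0.11 averaged over both populations (limma adjusted p = 0.0423), a call kept without EVI1 ATRA 3, EVI1 DMSO 1 or vector ATRA 3 and lost without each of the other 9 arrays (differences of -0.43 to -0.31) or without both DMSO arrays of replicate 3 (adjusted p = 0.149). PDK1 read 9.24, 9.33 and 9.62 in EVI1 ATRA cells, against 9.34, 9.82 and 9.79 in EVI1 DMSO cells, and 9.10, 9.18 and 9.54 in vector ATRA cells, against 9.68, 9.68 and 9.82 in vector DMSO cells. The vector groups did not overlap and the EVI1 groups did. The PDK1 difference was -0.45 ± 0.16 in vector cells (limma adjusted p = 0.157), called lower with the block (adjusted p = 0.011). In EVI1 cells it was -0.25 ± 0.16 (adjusted p = 0.34, 0.072 with the block). PFKFB2, the heart form of the PFKFB family, ranged from 5.86 to 6.68, and its ATRA difference was -0.07 ± 0.17 in EVI1 cells and -0.30 ± 0.17 in vector cells.

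The promoters of SLC2A1 and PFKFB3 are shown because both genes were called in EVI1 ATRA cells against both EVI1 DMSO and vector ATRA cells, comparisons that share the EVI1 ATRA arrays. SLC2A1 lies at chr1:42958819-42959118 on the minus strand, and PFKFB3 has a pair of starts on the plus strand, at chr10:6202682-6202981 (start A) and chr10:6144671-6144970 (start B), with length, source, build and capitals as for the hexokinases.
SLC2A1: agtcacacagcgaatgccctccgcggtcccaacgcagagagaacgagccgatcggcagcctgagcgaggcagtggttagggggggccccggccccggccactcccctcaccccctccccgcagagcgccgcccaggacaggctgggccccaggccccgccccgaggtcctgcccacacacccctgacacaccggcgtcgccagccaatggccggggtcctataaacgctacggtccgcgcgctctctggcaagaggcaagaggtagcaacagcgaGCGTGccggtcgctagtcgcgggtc
PFKFB3 start A: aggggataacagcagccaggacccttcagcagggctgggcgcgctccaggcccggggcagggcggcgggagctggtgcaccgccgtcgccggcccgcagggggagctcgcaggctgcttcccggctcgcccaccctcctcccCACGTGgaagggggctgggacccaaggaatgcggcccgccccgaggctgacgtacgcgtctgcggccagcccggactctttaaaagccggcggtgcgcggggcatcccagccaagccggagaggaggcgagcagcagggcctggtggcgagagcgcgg
PFKFB3 start B: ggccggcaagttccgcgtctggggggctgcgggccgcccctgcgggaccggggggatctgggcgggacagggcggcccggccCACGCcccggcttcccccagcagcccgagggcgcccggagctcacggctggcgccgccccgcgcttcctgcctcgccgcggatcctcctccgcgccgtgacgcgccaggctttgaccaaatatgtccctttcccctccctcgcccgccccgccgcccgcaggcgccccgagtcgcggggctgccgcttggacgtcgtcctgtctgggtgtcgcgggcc
Each of the 3 windows held 1 marked site, which at PFKFB3 start A was the E-box CACGTG.

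Among the genes known for the hypoxia response, ATRA raised DDIT4 and lowered VEGFA in both populations, so they did not move as 1 group. DDIT4 (REDD1), an inhibitor of the growth kinase mTORC1, read 13.04, 13.19 and 13.18 in EVI1 ATRA cells, against 10.30, 10.35 and 11.82 in EVI1 DMSO cells. In vector cells DDIT4 read 12.35, 12.65 and 12.30 with ATRA, against 10.08, 10.10 and 10.84 with DMSO. ATRA and DMSO arrays did not overlap, and replicate 3 was the highest DMSO array in both populations. DDIT4 rose by 2.31 ± 0.34 in EVI1 cells (4.97-fold, limma adjusted p = 0.00181) and by 2.09 ± 0.34 in vector cells (4.27-fold, adjusted p = 0.00952). Without both DMSO arrays of replicate 3 the rise was 2.81 in EVI1 cells and 2.34 in vector cells. The vector call was lost without vector DMSO replicate 1 or 2 or vector ATRA replicate 2, with differences of 1.96 to 2.34 and adjusted p of up to 0.0603.

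The DDIT4 promoter, chosen for the second largest rise among the 32 genes, lies at chr10:72273674-72273973 on the plus strand and held 4 marked sites, drawn as above.
DDIT4: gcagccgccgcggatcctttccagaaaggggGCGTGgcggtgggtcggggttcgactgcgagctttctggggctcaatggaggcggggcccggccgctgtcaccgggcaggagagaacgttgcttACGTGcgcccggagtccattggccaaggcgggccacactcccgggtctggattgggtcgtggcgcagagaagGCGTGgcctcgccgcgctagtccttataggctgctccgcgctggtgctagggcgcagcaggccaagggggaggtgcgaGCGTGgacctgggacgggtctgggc

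VEGFA, the main growth factor for blood vessels and a classical HIF-1 target, read 9.11, 8.94 and 9.13 in EVI1 ATRA cells, against 9.95, 10.11 and 9.91 in EVI1 DMSO cells. In vector cells VEGFA read 9.27, 8.74 and 8.84 with ATRA, against 10.01, 9.74 and 9.68 with DMSO. Every ATRA array lay under every DMSO array of its population. VEGFA fell by 0.93 ± 0.14 in EVI1 cells (1.91-fold lower, limma adjusted p = 0.00247) and by 0.86 ± 0.14 in vector cells (1.82-fold lower, adjusted p = 0.0111). The other 3 tested probe sets of VEGFA were lower as well, all 3 called in EVI1 cells and 1 in vector cells. The vector call was lost without vector DMSO replicate 1 or vector ATRA replicate 2 or 3, with differences of -1.02 to -0.76 and adjusted p of up to 0.0659.

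NDRG1, a stress-induced protein linked to differentiation, read 11.66, 11.95 and 12.02 in EVI1 ATRA cells, against 10.33, 10.72 and 11.62 in EVI1 DMSO cells. In vector cells NDRG1 read 11.91, 12.14 and 12.08 with ATRA, against 10.69, 10.91 and 11.66 with DMSO. The groups did not overlap, and the DMSO arrays of replicate 3 were close to the ATRA arrays. NDRG1 rose by 0.99 ± 0.30 in EVI1 cells (limma adjusted p = 0.0455), and its vector difference was 0.96 ± 0.30 (adjusted p = 0.114, 0.00721 with the block). Without both DMSO arrays of replicate 3 the difference was 1.35 in EVI1 cells (adjusted p = 0.00115) and 1.24 in vector cells (adjusted p = 0.00298). The EVI1 call was lost without any of 8 single arrays (EVI1 ATRA 2 or 3, EVI1 DMSO 1 or 2, vector ATRA 1, 2 or 3, vector DMSO 2), with differences of 0.71 to 1.35 and adjusted p of up to 0.177.

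P4HA1, a collagen prolyl hydroxylase subunit, read 9.59, 10.09 and 10.54 in EVI1 ATRA cells, against 9.32, 9.39 and 9.55 in EVI1 DMSO cells. In vector cells P4HA1 read 9.81, 9.65 and 9.90 with ATRA, against 9.35, 9.27 and 9.60 with DMSO. The ATRA arrays lay above the DMSO arrays in both populations. P4HA1 rose by 0.65 ± 0.20 in EVI1 cells (limma adjusted p = 0.0424), and its vector difference was 0.38 ± 0.20. The EVI1 call was kept without EVI1 ATRA replicate 1 and without vector DMSO replicate 3 and lost without each of the other 10 arrays, with differences of 0.42 to 0.89 and adjusted p of up to 0.165. It was also lost without both DMSO arrays of replicate 3 (adjusted p = 0.0654).

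BNIP3, a mitophagy receptor and HIF-1 target, read 8.85, 9.08 and 9.81 in EVI1 ATRA cells, against 9.17, 9.23 and 9.43 in EVI1 DMSO cells, and the groups overlapped. The vector cells read 8.59, 8.67 and 8.91 with ATRA, against 9.40, 9.23 and 9.34 with DMSO, with no overlap. The difference was -0.03 ± 0.20 in EVI1 cells and -0.60 ± 0.20 in vector cells (limma adjusted p = 0.136, 0.0192 with the block). The peptide hormone ADM was dim, from 5.06 to 6.90, and its highest value was EVI1 ATRA replicate 3. The histone demethylase KDM3A and the HIF target ANKRD37 differed by 0.04 and 0.10 with ATRA in EVI1 cells and by 0.05 and 0.09 in vector cells.

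**Figure D3:**
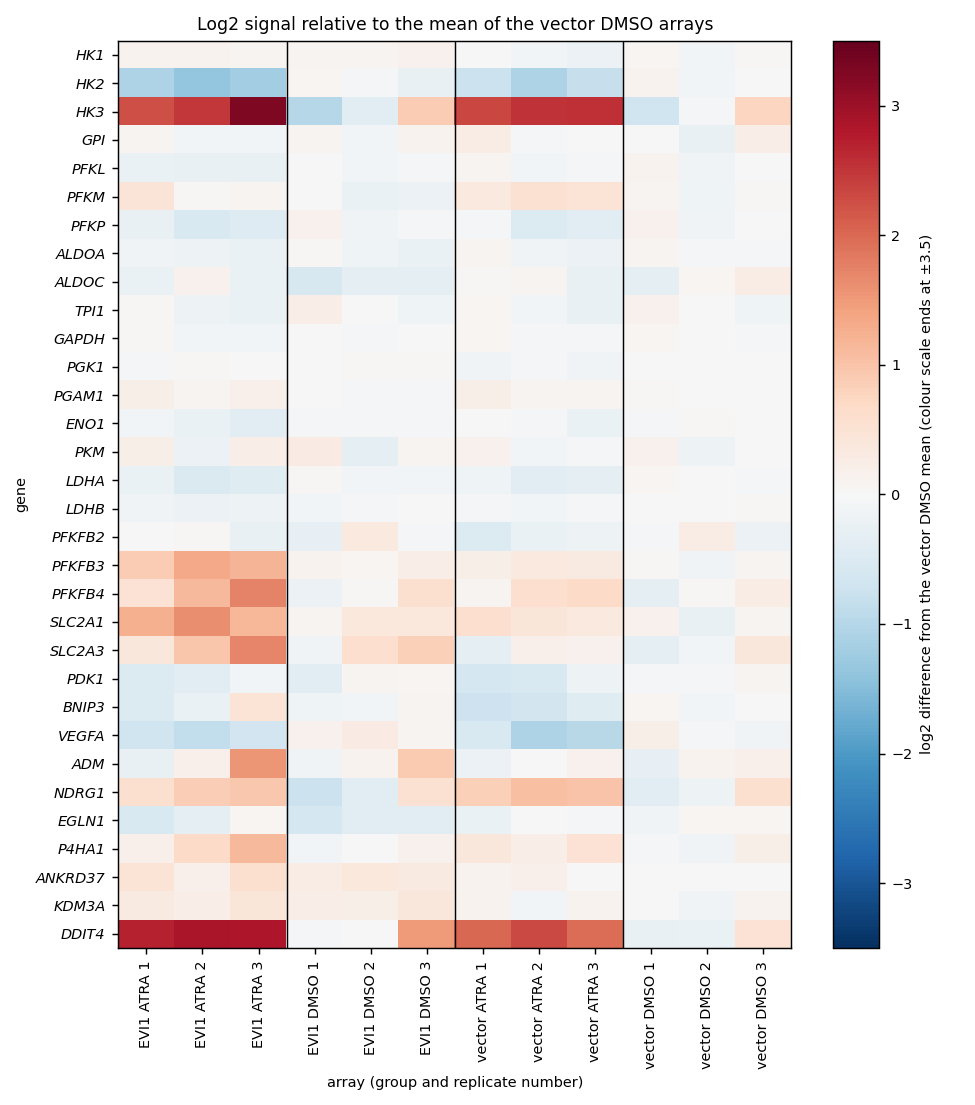
Log2 signal of the 32 tested genes on the 12 arrays, each relative to the gene's mean over the vector DMSO arrays, with red higher and blue lower. Columns run from EVI1 ATRA to vector DMSO; values reach from -1.37 to 3.28, HK3 and DDIT4 are red on all ATRA arrays and on the DMSO arrays of replicate 3, and HK2 and VEGFA are blue on the ATRA arrays.

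EVI1 against vector, under each agent, was the next comparison. The sample titles name no separate transductions, so the errors are not known to cover spread between transductions. EVI1 and any other difference between the populations cannot be told apart. Under DMSO, 0 of 32 genes were called by limma, against 1.21% of all tested genes (0.533% higher, 0.682% lower). An unadjusted p under 0.05 was found for 4 of the 32, against 9.79% of all tested genes. With the block 2 were called, against 7.19% of all tested genes. EGLN1, the prolyl hydroxylase PHD2 that marks HIF subunits for degradation, read 9.30, 9.51 and 9.50 in EVI1 DMSO cells, against 9.77, 9.98 and 9.96 in vector DMSO cells. The groups did not overlap, and the difference was -0.47 ± 0.14 (limma adjusted p = 0.186, 0.0156 with the block). KDM3A read 9.24, 9.21 and 9.39 in EVI1 DMSO cells, against 9.00, 8.89 and 9.11 in vector DMSO cells, a difference of 0.28 ± 0.11 (adjusted p = 0.344, 0.0296 with the block). ANKRD37 read 5.70, 5.82 and 5.75 in EVI1 DMSO cells, against 5.44, 5.47 and 5.43 in vector DMSO cells, a difference of 0.31 ± 0.11 (adjusted p = 0.306). The aldolase ALDOC differed by -0.40 ± 0.17, DDIT4 by 0.48 ± 0.34, SLC2A3 by 0.43 ± 0.33, ADM by 0.30 ± 0.39 and SLC2A1 by 0.27 ± 0.15.

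Under ATRA, 2 of 32 genes (6.25%) were called, both higher in EVI1 cells, against 5.61% of all tested genes (3.28% higher, 2.33% lower). The share of called genes was thus near that of all genes. PFKFB3 was higher by 0.85 ± 0.12 in EVI1 ATRA cells than in vector ATRA cells (1.80-fold, limma adjusted p = 0.00297). SLC2A1 was higher by 0.90 ± 0.15 (1.86-fold, adjusted p = 0.00786). Both calls were made in all 12 fits that leave out 1 array. SLC2A3 had the largest difference, 1.03 ± 0.33, with no overlap between the groups, and an adjusted p of 0.0934 (0.00119 with the block). It was also called without EVI1 ATRA replicate 1 (adjusted p = 0.0193). PFKFB4 differed by 0.66 ± 0.29 (adjusted p = 0.218, 0.00427 with the block) and BNIP3 by 0.52 ± 0.20 (0.156, 0.0276 with the block). HK2 differed by -0.36 ± 0.13, with every EVI1 ATRA array under every vector ATRA array (adjusted p = 0.127, 0.0146 with the block). DDIT4 differed by 0.70 ± 0.34, again without overlap (adjusted p = 0.268), and was called without both DMSO arrays of replicate 3 (0.0137). With the block, 9 of 32 genes were called, 7 higher and 2 lower, against 25.3% of all tested genes. These included PFKL, lower by 0.24 (adjusted p = 0.161, 0.0241 with the block), KDM3A, higher by 0.27 (0.169, 0.0146 with the block), and ANKRD37, higher by 0.32 (0.125, 0.0493 with the block). Without EVI1 ATRA replicate 1, 6 genes were called.

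Averaged over both agents, 4 of 32 genes (12.5%) were called, all 4 higher in EVI1 cells, against 9.69% of all tested genes (5.7% higher). They were SLC2A1 (0.58 ± 0.11, limma adjusted p = 0.00594), PFKFB3 (0.49 ± 0.08, adjusted p = 0.00373), ANKRD37 (0.31 ± 0.08, adjusted p = 0.0288) and KDM3A (0.27 ± 0.08, adjusted p = 0.0408). With the block 11 genes were called, 8 higher and 3 lower, against 28.6% of all tested genes. The 7 added by the block were SLC2A3 (0.73, blocked adjusted p = 0.000669), DDIT4 (0.59, 0.0483), PFKFB4 (0.40, 0.00726), HK1 (0.16, 0.0448), PFKL (-0.15, 0.0365), HK2 (-0.21, 0.027) and EGLN1 (-0.31, 0.00699). The ANKRD37 call was kept without EVI1 ATRA 1 or 2, EVI1 DMSO 1 or vector ATRA 2 and lost without each of the other 8 arrays, with adjusted p of up to 0.0745. The KDM3A call was kept without EVI1 ATRA 1 or vector DMSO 3 and lost without each of the other 10, with adjusted p of up to 0.107. Without both DMSO arrays of replicate 3 neither was called (adjusted p = 0.113 for ANKRD37, 0.106 for KDM3A), while DDIT4 was called (0.47, adjusted p = 0.019). The number of called genes was 2 without any 1 of EVI1 DMSO 2 or 3, vector ATRA 1 or 3, and vector DMSO 1 or 2.

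**Figure D4:**
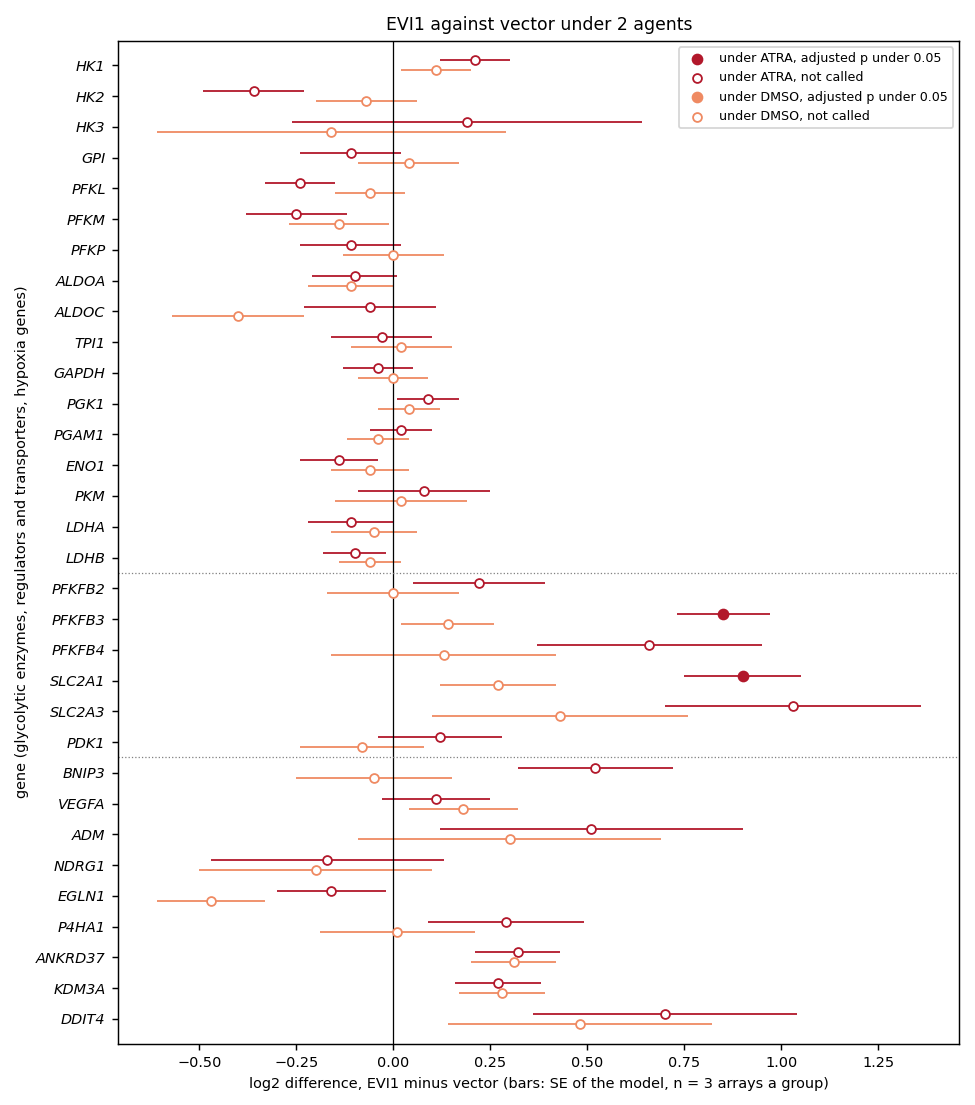
Difference between EVI1 and vector cells (log2 signal) under ATRA (dark red, upper point) and under DMSO (orange, lower point) for the 32 tested genes, with bars of 1 SE from the limma model and n = 3 arrays a group. The filled points, PFKFB3 at 0.85 and SLC2A1 at 0.90, are the ones that passed an adjusted p under 0.05, and all 6 regulators and transporters lie above 0 under ATRA.

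Whether the ATRA effect itself differed between EVI1 and vector cells was tested as an interaction. In that test 0 of 32 genes and 0% of all tested genes were called by limma, with or without the block, so a call in EVI1 cells beside no call in vector cells does not show a difference. At an unadjusted p under 0.05 stood 2 of 32 genes, against 2.57% of all tested genes. PFKFB3 had an effect larger by 0.71 ± 0.17 in EVI1 cells (unadjusted p = 0.00116, adjusted p = 0.998, 0.346 with the block) and ranked 6 of 14080 genes by p. SLC2A1 had an effect larger by 0.63 ± 0.22 (unadjusted p = 0.0132, adjusted p = 0.998) and ranked 65. The 6 regulators and transporters all had positive interaction values, from 0.20 to 0.71, and over all tested genes 45.2% were positive. These 6 genes come from a list chosen with earlier results known and were read on the same arrays. Their shared sign is therefore no test of them as a set. Outside PFKFB3 and SLC2A1 the errors were large: 0.60 ± 0.47 for SLC2A3, 0.53 ± 0.41 for PFKFB4, 0.22 ± 0.24 for PFKFB2 and 0.20 ± 0.23 for PDK1. Among the 32 genes, BNIP3 came next by p after SLC2A1, with 0.57 ± 0.28, and HK3 had 0.35 ± 0.64.

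Genes of neighbouring pathways, from lists that were also chosen with earlier results known, were read on the same arrays. Of other glycolytic isoenzymes and entry points, 2 of 16 (12.5%) were called higher with ATRA in each population. The shares of all tested genes called in either direction, 15.1% in EVI1 cells and 3.52% in vector cells, are given for comparison; in EVI1 cells 12.5% is near the general share. Fructose 1,6-bisphosphatase (FBP1), which runs the phosphofructokinase step backwards, rose by 2.14 ± 0.30 in EVI1 cells (limma adjusted p = 0.00146) and by 1.95 ± 0.30 in vector cells (adjusted p = 0.00686). The fructose transporter SLC2A5 rose by 2.59 ± 0.49 in EVI1 cells (adjusted p = 0.00574) and by 2.36 ± 0.49 in vector cells (adjusted p = 0.0244). SLC2A5 read 12.01 on EVI1 DMSO replicate 3 and 11.43 on vector DMSO replicate 3, against 9.84 to 10.14 on the other DMSO arrays.

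In the pentose phosphate pathway, which makes NADPH and ribose, 3 of 11 genes rose and 1 fell in EVI1 cells, and 1 of 11 rose in vector cells. That is 36.4% called in EVI1 cells and 9.09% in vector cells, against 15.1% and 3.52% of all tested genes in the same populations. PGD, the second NADPH-making enzyme, rose by 1.18 ± 0.15 in EVI1 cells (limma adjusted p = 0.000987) and by 0.78 ± 0.15 in vector cells (adjusted p = 0.0169). The ribokinase RBKS rose by 0.91 ± 0.17 and the endoplasmic reticulum enzyme H6PD by 0.72 ± 0.18 in EVI1 cells, while the ribose phosphate kinase PRPS2 fell by 0.77 ± 0.13. Under ATRA, 1 of the 11 was called higher in EVI1 than in vector cells (9.09%, against 5.61% of all tested genes). Of 15 genes of the tricarboxylic acid cycle, 0 were called by limma with ATRA in either population. The shares of all tested genes called were 15.1% in EVI1 cells and 3.52% in vector cells. An unadjusted p under 0.05 was found for 2 of the 15 in each, against 28.8% of all tested genes in EVI1 cells and 17.4% in vector cells. Averaged over both populations, 1 of the 15 rose and 1 fell with ATRA (13.3%), against 22.4% of all tested genes. Between EVI1 and vector cells under ATRA, 1 of the 15 was called lower (6.67%), against 5.61% of all tested genes. Of 12 genes of pyruvate entry, 2 (16.7%) were called in EVI1 cells, near the 15.1% of all tested genes. In vector cells 0 were called by limma, against 3.52% of all tested genes, and 2 had an unadjusted p under 0.05, against 17.4%. The pyruvate carrier MPC2 rose by 0.34 ± 0.09 and the pyruvate dehydrogenase subunit DLAT fell by 0.38 ± 0.10 in EVI1 cells. DLD, the dihydrolipoyl dehydrogenase shared with other complexes, was higher in EVI1 cells by 0.69 ± 0.11 under ATRA (adjusted p = 0.00752) and by 0.67 ± 0.11 under DMSO (adjusted p = 0.0134).

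Of 13 tested genes of the HIF machinery, HIF1A, the oxygen-regulated subunit of HIF-1, was called in EVI1 cells and 0 by limma in vector cells. In vector cells 1 of the 13 had an unadjusted p under 0.05, against 17.4% of all tested genes. The 7.69% called in EVI1 cells lies under the 15.1% of all tested genes, and 0 in vector cells is near the 3.52% there. HIF1A read 12.04, 12.59 and 12.60 in EVI1 ATRA cells, against 11.20, 11.47 and 11.89 in EVI1 DMSO cells, a rise of 0.89 ± 0.22 (limma adjusted p = 0.0207). In vector cells HIF1A read 11.62, 12.17 and 12.10 with ATRA, against 11.22, 11.24 and 11.71 with DMSO, a difference of 0.57 ± 0.22 (adjusted p = 0.201, 0.00749 with the block). Of 32 other genes known to be induced by hypoxia, 7 rose and 5 fell with ATRA in EVI1 cells, and 1 rose and 4 fell in vector cells. That is 37.5% called in EVI1 cells, against 15.1% of all tested genes, and 15.6% in vector cells, against 3.52%. In EVI1 cells the haem oxygenase HMOX1 rose by 1.29 ± 0.36 and the atypical cyclin CCNG2 by 1.25 ± 0.32, while the lipid droplet protein HILPDA fell by 1.00 ± 0.15 and the corepressor subunit SAP30 by 0.93 ± 0.15. In vector cells the adenylate kinase AK4 fell by 0.71 ± 0.17, SAP30 by 0.70 ± 0.15 and the MAX partner MXI1 by 0.55 ± 0.12, while the small GTPase RAB20 rose by 0.51 ± 0.11. Under ATRA, HMOX1 was higher in EVI1 than in vector cells by 1.45 ± 0.36 (adjusted p = 0.0388), with 8.45, 8.78 and 10.24 in EVI1 ATRA cells, against 7.38, 8.04 and 7.71 in vector ATRA cells. BHLHE40 and GBE1 were higher by 0.60 ± 0.16 and 0.56 ± 0.11 and HILPDA was lower by 0.56 ± 0.15 in the same comparison. Mean levels under DMSO in EVI1 and vector cells were 9.59 and 9.13 for BHLHE40 and 10.87 and 10.75 for GBE1. They were 9.12 and 9.07 for HILPDA and 7.87 and 7.53 for HMOX1.

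The list of transcription factors known to act on glycolysis genes also held other regulators, TXNIP and the coactivator PPARGC1A. Of its 13 tested genes, 4 rose and 2 fell with ATRA in EVI1 cells and 1 rose and 2 fell in vector cells. That is 46.2% called in EVI1 cells, against 15.1% of all tested genes, and 23.1% in vector cells, against 3.52%. MYC fell by 1.80 ± 0.18 in EVI1 cells (limma adjusted p = 0.000465) and by 0.86 ± 0.18 in vector cells (adjusted p = 0.0286). It read 11.13, 10.82 and 10.22 in EVI1 ATRA cells, against 12.43, 12.67 and 12.47 in EVI1 DMSO cells, and 11.67, 11.47 and 11.61 in vector ATRA cells, against 12.36, 12.49 and 12.48 in vector DMSO cells. KLF4 fell by 1.60 ± 0.15 in EVI1 cells and by 1.54 ± 0.15 in vector cells. CEBPB rose by 1.94 ± 0.36 in EVI1 cells and by 1.55 ± 0.36 in vector cells. TXNIP, an inhibitor of glucose uptake, rose by 1.07 ± 0.32 in EVI1 cells (adjusted p = 0.0429), and its vector difference was 0.90 ± 0.32 (adjusted p = 0.162, 0.00199 with the block). Under ATRA, MYC was lower in EVI1 than in vector cells by 0.86 ± 0.18 (adjusted p = 0.0203), and the MAX partner MXD1 was higher by 0.76 ± 0.12 (adjusted p = 0.00566). MXD1 was higher in EVI1 cells under DMSO too, with 7.88, 7.95 and 7.83, against 7.26, 7.33 and 7.14 in vector cells.

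Promoter windows were found for 30 of the 34 genes, 53 windows in all, since some genes have several starts whose windows can overlap. ACGTG or GCGTG on either strand stood in 36 of the 53 windows (67.9%), against 48.4% of the 35116 RefSeq windows of the same length. ACGTG alone stood in 41.5% of the windows, against 21.4% of all windows, and GCGTG alone in 41.5%, against 36.5%. The E-box CACGTG, which contains ACGTG, stood in 15.1%, against 7.26%. The retinoic acid half-sites AGGTCA and AGTTCA stood in 15.1% and 1.89%, against 13.8% and 10.4% of all windows. At least 1 window of 27 of the 30 genes held ACGTG or GCGTG, and windows of the same gene are not independent.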

How the data were processed

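Gene expression was measured in 12 samples on Affymetrix 3′ arrays from 250 ng of total RNA, per the labels' protocols. The deposited log2 values are RMA values that the authors computed in Expression Console 1.3 from Affymetrix, as the submitters' processing notes state; settings are not given in the sources used here. RMA normalises all arrays to one distribution, so it can hide a change shared by most genes.

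Of 54675 probe sets, 41097 carry 1 gene symbol in the platform annotation, 1801 carry several and 11777 are not listed. The brightest probe set of each of 19775 genes was kept, and 14080 genes with log2 of at least 5 on at least 3 arrays were tested with limma 3.58.1 (R 4.3.3), 4 group means and 8 residual df, Benjamini-Hochberg over all 14080 genes. Scripts were tested on simulated data. The number of arrays limits the precision. The replicate numbers in the titles pair the samples: deviations from group means correlated at 0.408 to 0.704 for all 18 same-number pairs (median 0.575) and at -0.56 to 0.164 for the other 36 (median -0.336). Deviations cancel out within a group, so mostly negative values for the other pairs follow from the positive same-number ones. They are no separate evidence of pairing.

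The genes and lists were chosen with earlier results of these data known. Genes called in a comparison are named with their values, filled up to 8 by size of difference; of the other lists, at most 4 called genes a comparison are named. Alternatives were the replicate block, the mean of probe sets, no signal filter, repeated quantile normalisation, a trended robust prior, only the groups compared, and leaving out arrays. Promoters are from RefSeq (GRCh38.p14).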

Additional observations from a re-analysis of the deposited data

Results flagged for a closer look

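EGLN1 differed with ATRA by 0.19 ± 0.14 in EVI1 cells (limma adjusted p = 0.434) and by -0.11 ± 0.14 in vector cells (0.775). The groups overlapped in both populations. Its other tested probe sets differed by 0.13 and -0.01 in EVI1 cells and by -0.29 and 0.05 in vector cells. By replicate number, all 3 EGLN1 values were higher in EVI1 ATRA than EVI1 DMSO cells. In vector cells 0 of 3 were higher with ATRA than with DMSO. The ATRA effect in EVI1 cells was larger by 0.31 ± 0.20 (SE), and the limma test of that difference had an adjusted p of 0.998, or 0.375 with the replicate block, so it did not pass.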

How the results depend on the processing

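With 3 arrays a group, small differences can be missed, and the calls depend on the shared spread estimate. The counts in this section stand without shares of all tested genes and do not single out the listed genes. With the replicate block the counts of called genes were 11 (ATRA, vector cells), 15 (ATRA, EVI1 cells), 2 (EVI1, DMSO), 9 (EVI1, ATRA), 16 (ATRA averaged) and 11 (EVI1 averaged), and 0 for the interaction; calls that the block added are given with the genes or comparisons, and no call on the 32 genes was lost with it. Fitting the compared groups alone gave 6 called genes for ATRA in EVI1 cells, and the mean of probe sets gave 2 for EVI1 averaged over both agents. Leaving out 1 array at a time gave 1 to 5 called genes for ATRA in vector cells (main 4; 1 without vector DMSO 1 or vector ATRA 2), 6 to 11 for ATRA in EVI1 cells (main 10), 2 to 6 for EVI1 under ATRA (main 2), 11 to 13 for ATRA averaged (main 13), 2 to 5 for EVI1 averaged (main 4), and 0 for EVI1 under DMSO and for the interaction. Without both DMSO arrays of replicate 3 it was 5 for ATRA in vector cells, 8 for ATRA in EVI1 cells, 3 for EVI1 under ATRA, 12 for ATRA averaged, 3 for EVI1 averaged, and 0 for EVI1 under DMSO and the interaction. Signs turned in 5 of these fits, all for values that were not called: DDIT4 under DMSO (EVI1 minus vector) went to -0.02 without EVI1 DMSO replicate 3 (range -0.02 to 0.74), ADM under DMSO to 0.00 without the same array (0.00 to 0.52), ADM under ATRA to -0.02 without EVI1 ATRA replicate 3 (-0.02 to 0.87), and the HK3 interaction to -0.07 without EVI1 DMSO replicate 1 and -0.02 without vector DMSO replicate 3 (-0.07 to 0.87). The cause was not tested. Among 63 named values under 19 alternative settings, leaving out 1 array kept 664 on their side of the threshold, lost 79 calls and gained 8; the other settings kept 374, lost 19 and gained 19, with no sign turned.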
